A study of Drosophila melanogaster with 4 samples.

Results

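The H3K9me2 clusters of the distal X chromosome of Drosophila melanogaster embryos were examined. They are all clusters on sequence X of the authors' replicate-set list, called the pooled list here, that start at or below position 20422827 of FlyBase release 5, which leaves out the proximal 2 Mb of X. This gave 986 members among the 4277 clusters of the pooled list. The chromatin came from wild-type Oregon-R embryos (Oregon-R-modENCODE) at the 14 to 16 h stage, and was immunoprecipitated with a new lot of the H3K9me2 antibody Ab2. The labels name 2 ChIP libraries and 2 input libraries, each ChIP library having its own input, and do not give the sex of the embryos. Distal 2L, 3L and 3R, likewise without their proximal 2 Mb, held 370, 409 and 371 pooled clusters and were used as background. The last member, 1.84 kb long at position 20381440, had a pooled score of 0.27, and the nearest pooled cluster beyond the limit, 4.00 kb long at position 20475836, had a score of 1.49.

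Dimethylation of histone H3 at lysine 9 marks transcriptionally repressive chromatin. In flies it is deposited by the methyltransferases Su(var)3-9, G9a and Eggless, and together with the trimethylated form it is bound by the heterochromatin protein HP1a. Most of it lies in pericentric heterochromatin and on chromosome 4, and the gene-rich parts of the large arms carry it in scattered short stretches. The X chromosome is also the target of the dosage compensation complex, which acts in males on the gene-rich part of the chromosome described here. Genes and DNA sequence under the clusters were not analysed here, because the coordinates are of release 5 and the gene table used here belongs to release 6.

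Distal X carried clusters more densely than each of the 3 background arms in all 3 lists. The pooled list had 48.3 clusters per Mb of distal X, against 17.6 on distal 2L, 18.1 on distal 3L and 14.3 on distal 3R. Replicate 1 had 665 clusters on distal X, or 32.6 per Mb, and replicate 2 had 514, or 25.2 per Mb. On the background arms the densities in replicate 1 were 11.8 on 2L, 11.7 on 3L and 8.34 on 3R, and those in replicate 2 were 8.61, 8.25 and 5.06. Set against the 3 arms combined, the ratio was 3.11 for replicate 1, 3.51 for replicate 2 and 2.92 for the authors' pooled list, and it averaged 3.31 ± 0.282 over the replicates (SD, n = 2). The density averaged 28.9 ± 5.23 clusters per Mb on distal X and 8.82 ± 2.33 on the arms combined (SD, n = 2), and the lower X replicate lay above every background arm in either replicate. With 2 libraries of 1 condition, an exact sign-flip permutation test cannot give a two-sided p below 0.5, so no test of this difference was made. The labels do not say whether the replicates came from separate embryo collections, so their spread may be technical.

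**Figure D1:**
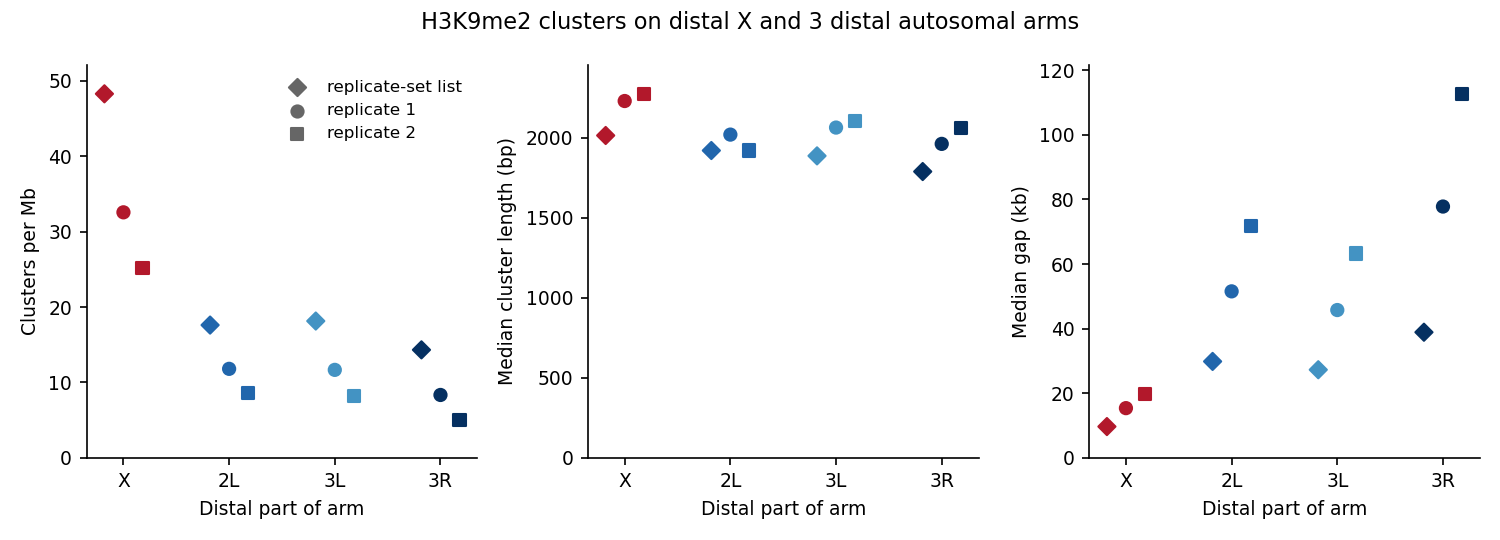
Density of clusters per Mb, median cluster length in bp and median gap in kb on distal X (left) and on distal 2L, 3L and 3R, with 1 symbol for each list. Distal X had the highest density and the shortest median gap in all 3 lists, while the median lengths of all arms lay between 1790 and 2276 bp.

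The clusters were spread along the whole of distal X. In 1 Mb windows of the pooled list, the 20 windows of distal X held between 23 and 65 cluster midpoints, with a median of 46.5. The 68 windows of the background arms held between 4 and 36, with a median of 16. No background window exceeded the X median, 17 of the 20 X windows exceeded the highest background window, and 11 background windows exceeded the lowest X window. The ranges on X were 18 to 49 in replicate 1 and 12 to 39 in replicate 2, and those on the background arms were 2 to 24 and 1 to 25. The separation was smaller in the replicates. The highest background window was exceeded by 15 X windows in replicate 1 and by 9 in replicate 2. In replicate 2, 1 background window exceeded the X median of 24.5.

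Density varied along distal X, and the lists placed the sparse and dense stretches alike. The sparsest pooled window ran from 7000001 to 8000000, with 23 midpoints in the pooled list, 19 in replicate 1 and 12 in replicate 2. The window from 9000001 to 10000000 was also sparse, with 31, 18 and 12. The densest was the last full window, from 19000001 to 20000000, with 65, 49 and 39. It was followed by the windows from 11000001 to 12000000, with 64, 47 and 31, and from 5000001 to 6000000, with 63, 41 and 33. Across the 20 windows of X the numbers of the replicates were related with Pearson's r = 0.925, given as a description, since all windows come from the same 2 libraries. The terminal 6.81 Mb had 47.2 members per Mb, the middle 6.81 Mb had 44.2 and the proximal 6.81 Mb had 53.5. In replicate 1 these densities were 30.4, 30.8 and 36.4, and in replicate 2 they were 24.2, 22.3 and 28.9, so that the proximal segment was the densest in each list. The middle segment was the sparsest in the pooled list and in replicate 2, while in replicate 1 it lay close to the terminal one.

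**Figure D2:**
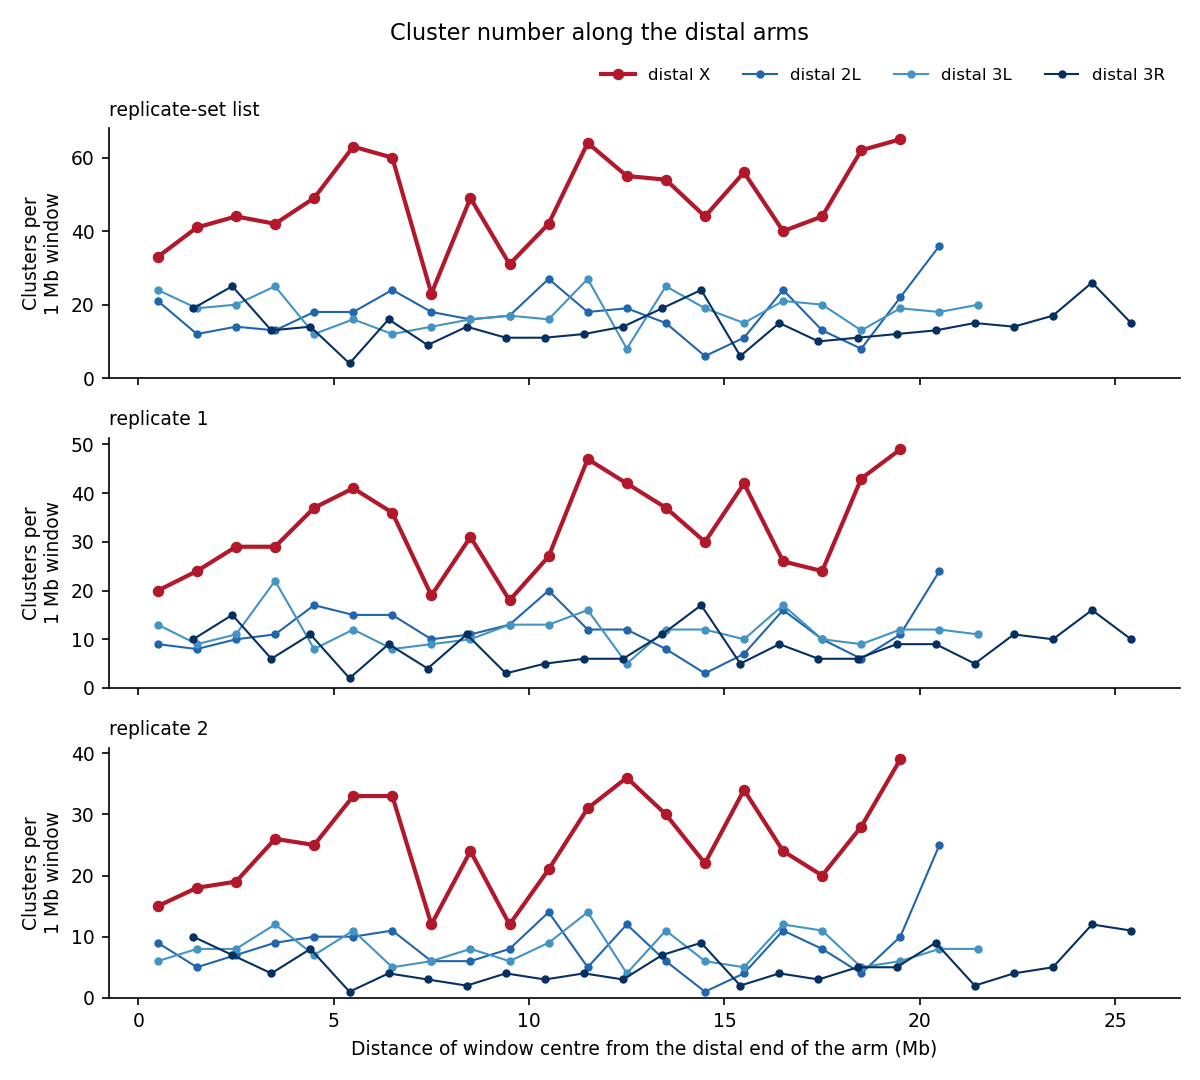
Number of cluster midpoints in each 1 Mb window (vertical axis) against the distance of the window's centre from the distal end of its arm in Mb, for distal X (red) and distal 2L, 3L and 3R (blues), in the pooled list and in each replicate. The X line ran above the others along most of its length, and its lowest point in the pooled list was the window with 23 clusters.

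Members were short as a rule, with a small tail of long ones. Pooled lengths on distal X had a median of 2015.5 bp, with quartiles of 1528 and 3089 bp and extremes of 1001 and 43320 bp. The medians on distal 2L, 3L and 3R were 1921.5, 1888 and 1790 bp, and the upper quartiles were 2531, 2606 and 2289 bp. Members of at least 3 kb numbered 257, or 26.1% of distal X, against 183, or 15.9%, on the background arms together. Those of at least 5 kb numbered 82, or 8.32%, and held 24.5% of the covered length of distal X, against 56, or 4.87%, which held 16.6% of the covered length of the background arms. Among these arms that share of covered length ranged between 8.55% on 3R and 22.0% on 2L. The density ratio of X to the background arms was 2.64 for clusters under 1301 bp, 2.33 from there to 2 kb and 2.88 between 2 and 3 kb. It was 4.69 between 3 and 5 kb and 4.98 from 5 kb upward. Clusters covered 12.8% of distal X in the pooled list, 9.40% in replicate 1 and 7.06% in replicate 2. On the background arms together they covered 3.77%, 2.57% and 1.80%.

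The 6 longest members were touched by both replicates. The longest ran from 17818746 to 17862065, over 43.3 kb, with a pooled score of 1.77, and was covered over 99.6% by 2 clusters of replicate 1 and over 90.9% by 5 clusters of replicate 2. The fifth longest, 11.8 kb from 17876849, lay in the same 100 kb window. The second longest lay at the distal tip of the chromosome, from 79 to 18685, and was a single cluster in each replicate, covering 99.8% of it in replicate 1 and 99.0% in replicate 2. The others were 17.5 kb from 16364860, 12.8 kb from 19611792 and 11.6 kb from 6445746. Replicate 1 covered between 94.4% and 97.6% of these 3 members and replicate 2 between 78.7% and 98.5%.

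Gaps between neighbouring members were short on distal X. The 985 pooled gaps had a median of 9.68 kb and quartiles of 3.33 and 23.0 kb, against medians of 29.8 kb on distal 2L, 27.3 kb on distal 3L and 38.9 kb on distal 3R. Replicate 1 had a median X gap of 15.4 kb and replicate 2 one of 19.8 kb, while the background medians were 51.5, 45.8 and 77.8 kb in replicate 1 and 71.7, 63.2 and 113 kb in replicate 2. Only 70 pooled gaps on X, or 7.11%, were longer than 50 kb, and they made up 29.1% of distal X. On the background arms gaps of this length made up 77.8% of 2L, 75.0% of 3L and 84.4% of 3R. The shares lay closer in the replicate lists, with 48.2% of distal X in replicate 1 and 61.1% in replicate 2, against 85.6 to 92.4% and 91.1 to 92.4% of the background arms.

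The longest stretch of distal X with no member was 254 kb, from 9603153 to 9857543. The next were 183 kb from 15989957, 169 kb from 8510162 and 148 kb from 2799100. None of these 4 gaps held a cluster of either replicate list. Of the 70 gaps over 50 kb, 41 held no replicate cluster and 29 were touched by at least 1, counting replicate clusters that reach past the end of a member. In windows of 100 kb, 8 of the 204 windows of distal X held no pooled midpoint, and none of these 8 held a replicate midpoint. The background arms had 48 empty windows of 210 on 2L, 54 of 225 on 3L and 76 of 259 on 3R. At least 6 midpoints lay in 83 X windows, or 40.7%, against 2.38% of the windows on 2L, 4.00% on 3L and 2.32% on 3R. In the shorter replicate lists dense windows were fewer and empty ones more numerous. Windows with at least 6 midpoints made up 16.7% of X in replicate 1 and 7.35% in replicate 2, against at most 1.43% and 0.476% of a background arm. Empty windows numbered 18 on X in replicate 1 and 30 in replicate 2, against at least 75 and 96 on a background arm. Such window counts also depend on density and are not set apart from it.

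**Figure D3:**
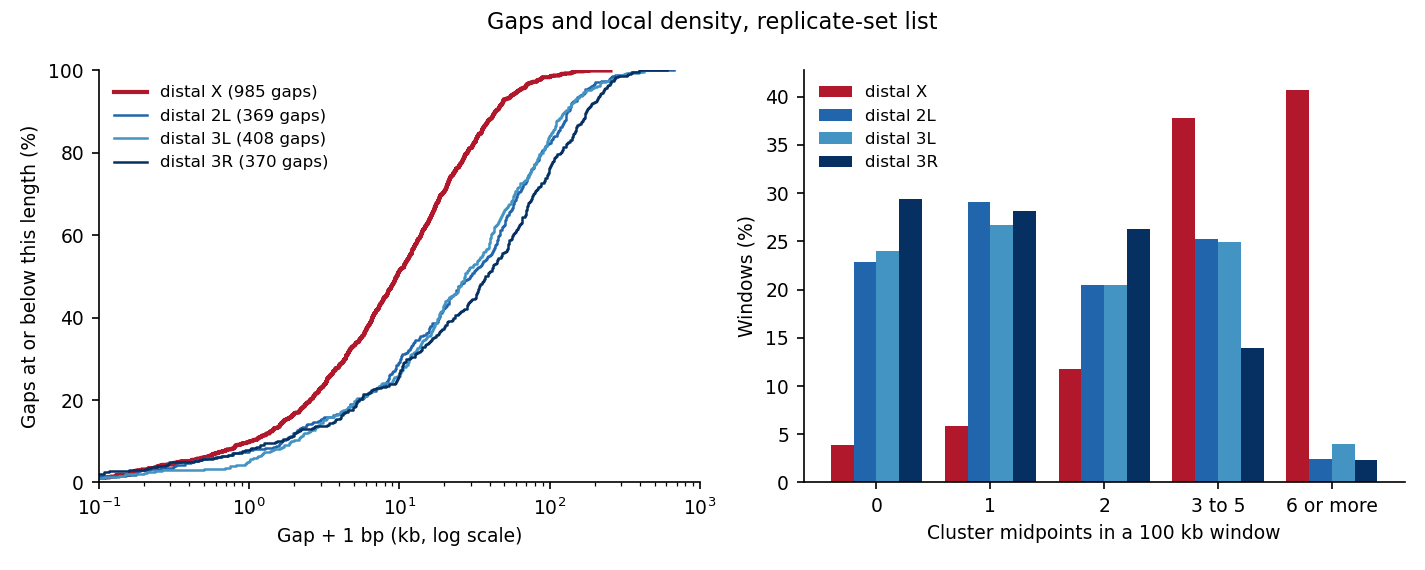
Left, cumulative share of gaps (percent) against gap length in kb on a log axis, 1 line per arm. Right, percent of 100 kb windows by their number of cluster midpoints, with distal X as the left bar of each set. The X line lies to the left of the others from about 1 kb upward, with a median of 9.68 kb, and the lines cross at shorter gaps.

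Members were unevenly spaced, to a degree that depended on the measure. The coefficient of variation of the gaps, which is 1 for points placed at random, was 1.33 on distal X in the pooled list, 1.32 in replicate 1 and 1.33 in replicate 2. It was 1.30 on 2L, 1.29 on 3L and 1.19 on 3R in the pooled list. The Fano factor is the variance of the number of midpoints per 100 kb window over its mean. It too is 1 for points placed at random. It was 1.62 on X, against 1.44, 1.53 and 1.35. In the replicates it was 1.60 and 1.58 on X, and 3L in replicate 2 also had 1.58. The gap coefficient of 2L in replicate 1 was 1.33, above that of X. The other background values in the replicates lay below X. Clusters have length and do not overlap, which lowers the Fano factor under random placement. The window measures were not corrected for this, and distal X had the largest covered share. The Fano factor grows with the mean count, so the excess variance was also divided by the squared mean, a measure chosen after the Fano factors had been seen. On this scale distal X had 0.128, against 0.249 on 2L, 0.293 on 3L and 0.242 on 3R. In the replicates X had 0.184 and 0.229, and the background arms lay between 0.182 and 0.705, with only 3R in replicate 1 below X. Gaps in sequence showed only weak order: the log2 lengths of successive gaps on X, with 1 bp added to each, were related with r = 0.149 over 984 pairs in the pooled list, 0.0901 in replicate 1 and 0.0759 in replicate 2. The pooled gap values were 0.152 on 2L, 0.104 on 3L and 0.0413 on 3R. In the replicates only 2L in replicate 2, with 0.214, stood above X. The numbers in neighbouring windows of 100 kb on X were related with r = 0.182 in the pooled list, 0.166 in replicate 1 and 0.224 in replicate 2. The pooled background values were 0.165 on 2L, 0.0206 on 3L and 0.0921 on 3R. These are descriptions across neighbouring places in the same list.

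Close neighbours formed chains, here members joined across gaps of at most 5 kb. On distal X 525 members, or 53.2%, belonged to 199 chains of 2 or more, and 28 chains held 4 or more members. On 2L, 3L and 3R, 32.7%, 33.3% and 32.9% of the clusters were in chains. At a fixed gap such a share rises with density, so these shares are not set apart from the densities above. The chain with the most members spanned 51.4 kb from 19819644 to 19871032 and held 10 members, 7 of them touched by both replicates. Their lengths ran from 2418 to 6623 bp and their scores from 0.53 to 1.83. Another chain, 76.5 kb from 16349916 to 16426429, held 9 members, including the 17.5 kb member, and was covered over 78.4% in the pooled list, 68.5% in replicate 1 and 63.3% in replicate 2. The third, 30.5 kb from 8777391 to 8807911, was of another kind: only 2 of its 7 members were touched by both replicates, and the highest score in it was 0.70.

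In 100 kb windows of the pooled list the highest local numbers on distal X were 13 midpoints, reached at 3 places. The most in a background window were 8 on 2L, 8 on 3L and 7 on 3R. The window from 5200001 to 5300000 was covered over 46.9% in the pooled list, 37.6% in replicate 1 and 31.8% in replicate 2. The window from 19800001 to 19900000, which holds the chain of 10, was covered over 43.5%, 34.7% and 27.0%. The window from 18700001 to 18800000 was covered over only 25.6%, 17.2% and 8.11%, and replicate 2 had 4 midpoints there. The highest covered share on distal X, 64.5%, belonged to the window from 17800001 to 17900000, with only 6 pooled midpoints. The window from 16300001 to 16400000 had 44.4%, also with 6. Such windows were not particular to distal X. The highest covered share on 2L was 71.6% in the pooled list, 66.2% in replicate 1 and 61.2% in replicate 2, against 64.5%, 59.7% and 55.8% on X. On 3L and 3R the highest pooled shares were 25.2% and 18.1%.

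The scores on distal X mostly ranked below the middle of the pooled list, and lower in the replicate lists. The score is the authors' own value for each cluster, its scale is not stated in the sources used here, and it is compared only within a list. The pooled list was cut at its quartiles into 4 score classes, from class 1 with the lowest to class 4 with the highest scores. This division was made after the lists had been seen. Distal X held 203 members in class 1, 457 in class 2, 305 in class 3 and 21 in class 4. The background arms together held 540, 338, 219 and 53. Per Mb, distal X exceeded the background by a ratio of 1.28 in class 1, 4.60 in class 2, 4.74 in class 3 and 1.35 in class 4.

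A like pattern was seen in both replicate lists, each cut at its own quartiles. The ratios were 1.67, 5.24, 4.82 and 1.97 in replicate 1 and 2.49, 5.60, 5.10 and 1.36 in replicate 2. The 2 middle classes thus had the larger ratios in each list. In class 4 the counts were small, with 11 X clusters in replicate 1 and 8 in replicate 2, against 19 and 20 on the background arms. The score on distal X had a median of 0.60 in the pooled list, 0.79 in replicate 1 and 1.04 in replicate 2, against 0.50, 0.63 and 0.89 on the background arms together. The median member stood at percentile 41.0 of the pooled list, and the medians of distal 2L, 3L and 3R stood at 25.5, 30.1 and 26.4. In replicate 1 the median X cluster stood at 33.8, against 19.3, 25.3 and 21.2. In replicate 2 it stood at 27.3, against 16.4, 20.7 and 17.6. The upper 50% of the scores of each list held 33.1% of the X clusters in the pooled list, 18.5% in replicate 1 and 8.56% in replicate 2. On the background arms together these shares were 23.7%, 13.5% and 8.84%, so X did not lie above the background in replicate 2 by this measure.

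**Figure D4:**
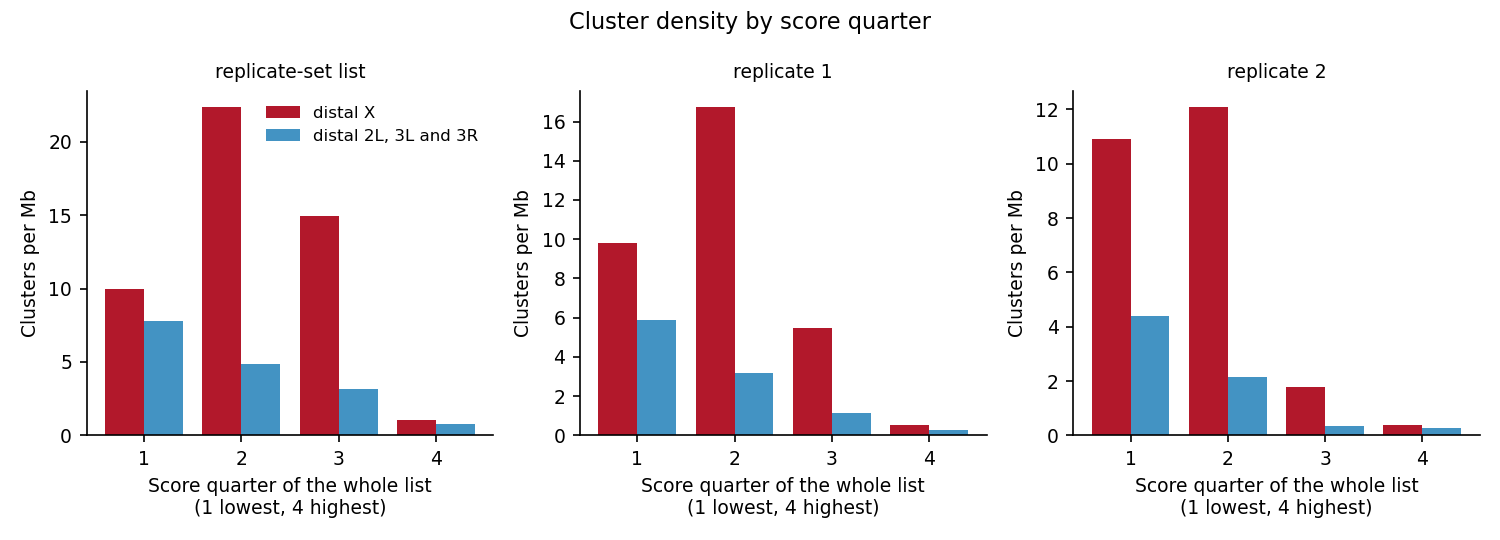
Clusters per Mb (vertical axis, a separate scale in each panel) by score class of the whole list, for distal X (left bars) and for distal 2L, 3L and 3R together (right bars). In all 3 lists the bars of X stand farthest above their neighbours, as a ratio, in classes 2 and 3.

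Members touched by both replicates were 433, or 43.9% (95% Wilson interval 40.8 to 47.0%, counting error only). The same share was 37.6% on the background arms and 54.6% in the whole pooled list, which includes the heterochromatin. The background arms differed among themselves, with 42.7% on 2L, close to X, 39.1% on 3L and 30.7% on 3R. Replicate 1 alone touched 216 members, or 21.9%, replicate 2 alone touched 46, or 4.67%, and neither touched 291, or 29.5% (95% Wilson interval 26.8 to 32.4%). On the background arms replicate 1 alone touched 24.4% and replicate 2 alone 3.74%, and in the whole list 16.9% and 3.32%. Neither replicate touched 34.3% of the clusters on the background arms, with 29.5% on 2L, 34.5% on 3L and 38.8% on 3R, and 25.2% of the whole list. The members touched by both held 64.7% of the covered length of distal X, against 55.6% on the background arms and 88.0% in the whole list.

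The share touched by both replicates was higher in each longer class of clusters, on X and on the background arms. The shortest replicate cluster of all measured 1301 bp. Of the 159 members below that length, none was touched by both (95% Wilson interval up to 2.36%) and 153, or 96.2%, were touched by neither. The background arms were alike, with 205 such clusters, none touched by both and 193, or 94.1%, touched by neither. Both replicates touched 11.2% of the members from 1301 bp up to 2 kb, 63.5% from 2 to 3 kb, 90.3% from 3 to 5 kb and 98.8% of those of 5 kb and more. The shares on the background arms were 12.8%, 70.4%, 86.6% and 98.2%. The difference between X and the background arms was not tested in any class. Distal X had a larger part of its clusters in the classes over 3 kb, as given above. The median length was 3192 bp among members that both replicates touched and 1269 bp among those that neither did. Their median scores were 0.92 and 0.53.

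By score class, the shares of X and of the background arms stood furthest apart in classes 2 and 4, in opposite directions. In class 2, 26.3% of the X members but 48.5% of the background clusters were touched by both, and 39.4% and 28.1% were touched by neither. In class 3 the shares touched by both were 91.8% and 85.8%, and in class 1 they were 8.87% and 11.3%. In class 4 both replicates touched 15 of 21 members on X, or 71.4%, against 19 of 53 clusters on the background arms, or 35.8%, and neither touched 23.8% on X, against 58.5%. Class 2 members of X had a median length of 1921 bp, against 2104 bp on the background arms.

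**Figure D5:**
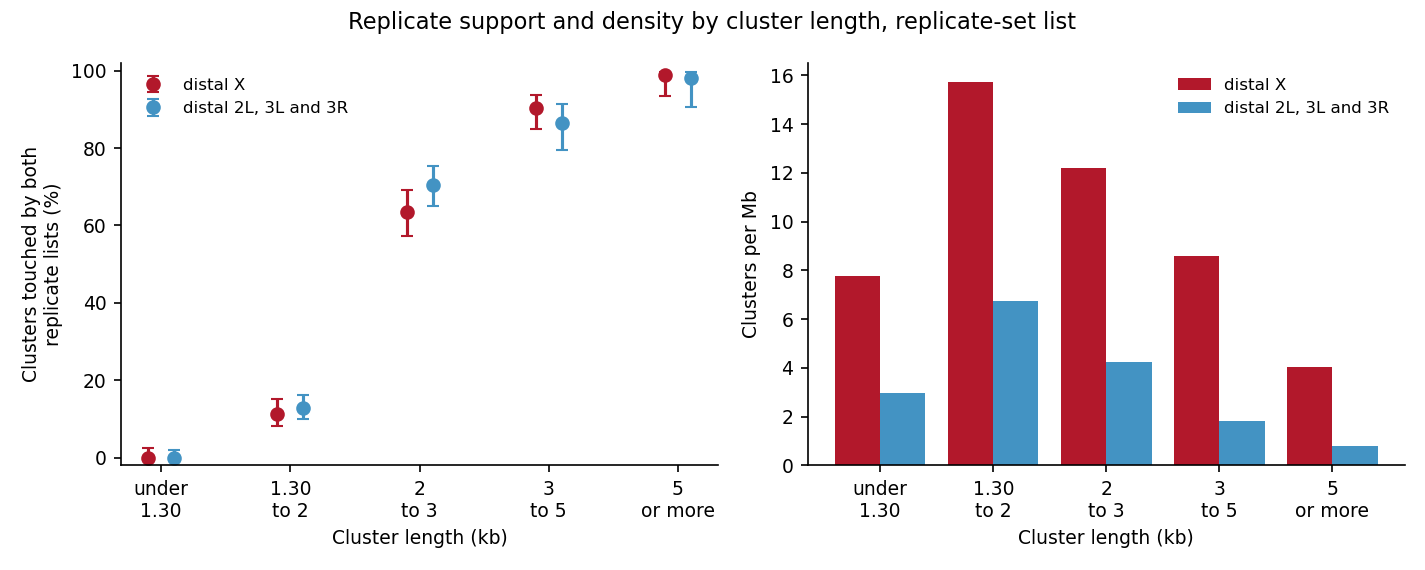
Left, percent of pooled clusters touched by both replicate lists in 5 length classes (kb), for distal X (red) and distal 2L, 3L and 3R together (blue), with 95% Wilson intervals that cover counting error only. Right, clusters per Mb in the same classes. Support rose with length on both, and the bars of X and the background differ most, as a ratio, from 3 kb upward.

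Nearly all replicate clusters of distal X overlapped a pooled cluster. Of the 665 clusters of replicate 1, 664 touched a pooled cluster, and of the 514 of replicate 2, 510 did. Replicate 1 touched 65.8% of the members and replicate 2 touched 48.6%. The background shares by replicate are given above, and the match of replicate to pooled clusters is described for distal X only. A touched member mostly matched 1 replicate cluster, in 631 of 649 cases for replicate 1 and 450 of 479 for replicate 2. Among members and replicate clusters that touched only each other, the replicate cluster began a median of 57 bp inside the member in replicate 1 and 205 bp inside in replicate 2. It ended 66 bp and 207 bp before the member's end and had 93.2% and 82.8% of its length. It lay wholly inside the member in 67.5% of these cases in replicate 1 and 83.9% in replicate 2. Between the replicates, 90.1% of the replicate 2 clusters and 67.1% of the replicate 1 clusters on distal X were shared, against 90.0% and 60.5% on the background arms.

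The 6 highest-scoring members touched by both replicates were 4.28 to 8.06 kb long and lay apart from each other. The highest, at 12825776 to 12830061, had a pooled score of 3.17, with 3.09 in replicate 1 and 3.29 in replicate 2. The next, at 10991751 to 10996028, had 3.12, with 3.09 and 3.14. The member at 2505580 to 2511065 had 3.10 but was covered over only 78.0% in replicate 1 and 77.5% in replicate 2. The members at 1521730 to 1529787 and at 3309222 to 3315457 had scores of 2.96 and 2.84, each as a single cluster in both replicates. The member at 322353 to 328646, with a score of 2.89, was isolated, with a gap of 142 kb on its distal side and 89.2 kb on its proximal side. It was made of 2 clusters in each replicate.

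The single highest score on distal X belonged to a member that neither replicate touched. It ran from 11433909 to 11434909, scored 3.77 and had the shortest length in the pooled list, 1001 bp. Of the 21 class 4 members, 5 were touched by neither replicate, and 4 of these were 1001 bp long. In all, 21 members had this length and none was touched by a replicate. The background arms had 23 clusters of this length and the whole pooled list had 69, with 1 touched in each case. Class 4 held 10 of the 23 and 32 of the 69, so these short clusters were not particular to distal X.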

How the data were processed

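Chromatin immunoprecipitation and sequencing was done on 2 ChIP libraries and 2 inputs, which enter only through the authors' calls. The deposited lists give a start, an end and a score for each cluster. The build is FlyBase release 5, per the file headers, and the submitters' processing notes list Bowtie 0.12.7. The caller, its threshold, the scale of the score deposited by the authors and the way the replicates were combined are unstated (not given in the sources used here). The lists differ in their number of clusters, with 4277 in the pooled list, 3579 in replicate 1 and 3238 in replicate 2, so levels are compared between arms within a list. No read counts were used, so depth is unknown.

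Intervals were handled with Python 3.11.15, numpy 2.4.6, pandas 2.3.3 and scipy 1.17.1, and the functions were tested on simulated clusters. Ends past the end of an arm were trimmed. Arm lengths come from the file headers and were not corrected for sequence where reads cannot be placed. A cluster is touched by another over at least 1 bp. A gap runs from a cluster's end to the next start. Windows of 100 kb and 1 Mb were counted from the distal end on X, 2L and 3L and from the proximal limit on 3R, and incomplete windows were left out.

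The regions named are the 6 longest members, the 6 highest-scoring members touched by both replicates, the 4 longest gaps, the 3 windows with the most midpoints and the 3 with the highest covered share, and the 3 chains with the most members. Other named places were chosen after their values were seen. The members and the background arms were chosen with earlier results of these data known. No test was made.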

Additional observations from a re-analysis of the deposited data

How the results depend on the processing

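Depth could not be assessed, and mappable length was not known. Values are for distal X, and a value is said to move when its change exceeds the SD of the replicates or, where support is concerned, its Wilson interval. The replicate lists are shorter than the pooled list, so levels move by construction. With the mean of the replicate lists, density was 28.9 per Mb, the ratio to the background arms 3.31, the covered share 8.23%, the median gap 17.6 kb and the Fano factor 1.59. Leaving out 1 replicate meant using the list of the other, since the pooled list was not called again. The values are thus those of the replicate lists given above and are no separate check. They were 25.2 to 32.6 per Mb, ratios of 3.11 to 3.51 and covered shares of 7.06 to 9.40%. Median gaps were 15.4 to 19.8 kb, gap coefficients of variation 1.32 to 1.33 and Fano factors 1.58 to 1.60. With the pooled clusters above the median score of the whole list, these were 16.0 per Mb, 4.08, 6.85%, 29.5 kb, 1.38 and 1.54, and 90.5% were touched by both replicates. This cut keeps score classes 3 and 4. Their shares touched by both were 85.8% and 35.8% on the background arms, against 91.8% and 71.4% on X. Joining clusters closer than 1 kb gave a gap coefficient of 1.23 and a Fano factor of 1.32. Without clusters shorter than any replicate cluster, density was 40.5 per Mb, the Fano factor 1.56 and the share touched by both 52.4%. With 1 Mb left out at the proximal end the Fano factor was 1.66, and windows of 50 and 200 kb gave 1.25 and 2.02. The ratio of X to the background arms stayed between 2.79 and 4.08 under the alternatives run. Where no construction of a setting accounts for a move, the cause was not tested. No paired analysis was possible because ChIP and input, which share replicate numbers, cannot be set against each other without cluster lists for the inputs; the ratios of X to the background arms are already taken within each list.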

Other observations

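The neighbourhood of the members on distal X was compared by replicate support. The nearest pooled neighbour lay at a median of 3.77 kb for members touched by both replicates and 4.84 kb for members touched by neither, and the median number of other members within 50 kb was 5 in both sets. The 216 members touched by replicate 1 only had a median of 5.47 kb and the 46 touched by replicate 2 only one of 3.30 kb, with 5 and 6 other members within 50 kb. A member touched by both was followed by another such member in 45.4% of 432 cases, and a member touched by neither was followed by one touched by both in 44.7% of 291 cases. The share touched by both was 43.9% in the terminal 6.81 Mb, 44.2% in the middle and 43.7% in the proximal 6.81 Mb. Among the 1 Mb windows it ranged between 27.3% and 55.4%.

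Length and local density were weakly related on distal X. The log2 length of a member and the number of other members within 50 kb were related with r = 0.0513 over 986 members, and the log2 lengths of adjacent members with r = 0.0868 over 985 pairs in the pooled list, 0.173 in replicate 1 and 0.116 in replicate 2. Score and log2 length were related more closely, with r = 0.574 on distal X in the pooled list, against 0.479 on 2L, 0.444 on 3L and 0.210 on 3R. The order of the arms was not kept in the replicate lists. In replicate 1, X had 0.666, against 0.644, 0.645 and 0.601, and in replicate 2 it had 0.681, against 0.717 on 2L, 0.606 on 3L and 0.391 on 3R. These values each describe the clusters of 1 list and are not tests.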
